A study of Mus musculus with 8 samples.

Results

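The 10 genes described here mark the bone, cartilage and tendon lineages: Runx2, Sp7, Alpl and Bglap for bone, Acan, Comp, Matn1 and Chad for cartilage, and Scx and Tnmd for tendon. They were taken by name, and each matched a single Ensembl gene among the 49671 in the deposited count table. The table holds 8 RNA-seq libraries, each from a mouse tumor of the genotype HprtCre; Ewsr1-loxP; Atf1-loxP. In this design Cre expressed from the Hprt locus is meant to recombine loxP sites in Ewsr1 and Atf1 and so join both genes. Tumors are called here by their titles' endings: 1, 2L, 2R, 3, 4a, 4b, 5, 6. All were untreated and taken at morbidity, all share the 1 genotype, and the labels name no control, body site, age or cell of origin, so the 8 libraries form a single group. What the shared numbers (2L with 2R, 4a with 4b) stand for is not stated, and no label says that the samples came from separate animals, so p-values measure only the spread between these libraries, which may be technical.

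Cells of the skeleton and its attachments derive from shared mesenchymal progenitors. Runx2 is the transcription factor that commits progenitors to bone. Sp7 (osterix) acts downstream of it, and Alpl (tissue-nonspecific alkaline phosphatase) and Bglap (osteocalcin) mark early and late matrix mineralization. Acan encodes aggrecan, the large proteoglycan of cartilage, and Comp, Matn1 and Chad encode glycoproteins of the same matrix. Scx (scleraxis) is the transcription factor of tendon progenitors, and Tnmd (tenomodulin) is a membrane protein of mature tendon cells. EWSR1-ATF1 fusions in humans are characteristic of clear cell sarcoma, a tumor that often grows on tendons and aponeuroses.

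The libraries held 4817902 counts (tumor 3) to 19682149 counts (2L). Library 3 stood apart in its scaling factor (TMM factor 0.394, against 0.83 to 1.365) and in its 17952 genes detected, against 21350 to 24763. Mitochondrially encoded genes took 33.8% of its counts, 27.3% in 2R, 24.0% in 5 and 1.81 to 16.3% in the other 5 libraries. Gm26917 and Gm42418 together took 27.6% of the counts of library 3, against 0.507 to 8.66% in the remaining libraries. Values are CPM, counts scaled to a library size of 1000000 with edgeR's TMM factors. Where a library had 0 counts, 3 counts are taken as the limit that counting error allows, which amounts to 1.6 CPM for library 3, and for the remaining libraries to 0.117 to 0.467 CPM. PCR copies were not separated from molecules, so these limits and the intervals below cover counting error only. Ewsr1 and Atf1 were detected in every library, at 52.2 to 129 and 21.4 to 34.0 CPM. Counts per gene do not separate reads of a fusion from those of either gene alone. The melanocyte regulator Mitf, an indicator of clear cell sarcoma, stood at 30.3 to 130 CPM, whereas the neural crest regulator Sox10 did not exceed 0.235 CPM. The list of 7 tumor identity genes also held Dct, Pmel and S100b. Of the 7, 6 (all but Sox10) reached a mean of 1 CPM, against 30.7% of all genes. A mean of 10 CPM was reached by 5, against 19.1% of all genes.

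The 10 genes were present in part. Alpl, Comp, Runx2 and Acan reached a mean of 10 CPM, which 19.1% of all 49671 genes did. Scx, Tnmd, Sp7 and Bglap lay between 1 and 10 CPM, and Matn1 and Chad had 8 and 10 counts over all 8 libraries together. The low-count filter, which asked for 0.92 CPM (before TMM scaling) in all 8 libraries, was passed by 4 of the 10 (Runx2, Alpl, Comp and Scx) and by 11505 genes (23.2%) in all. In these bulk samples, fewer cells of a type and less RNA per cell cannot be told apart.

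**Figure D1:**
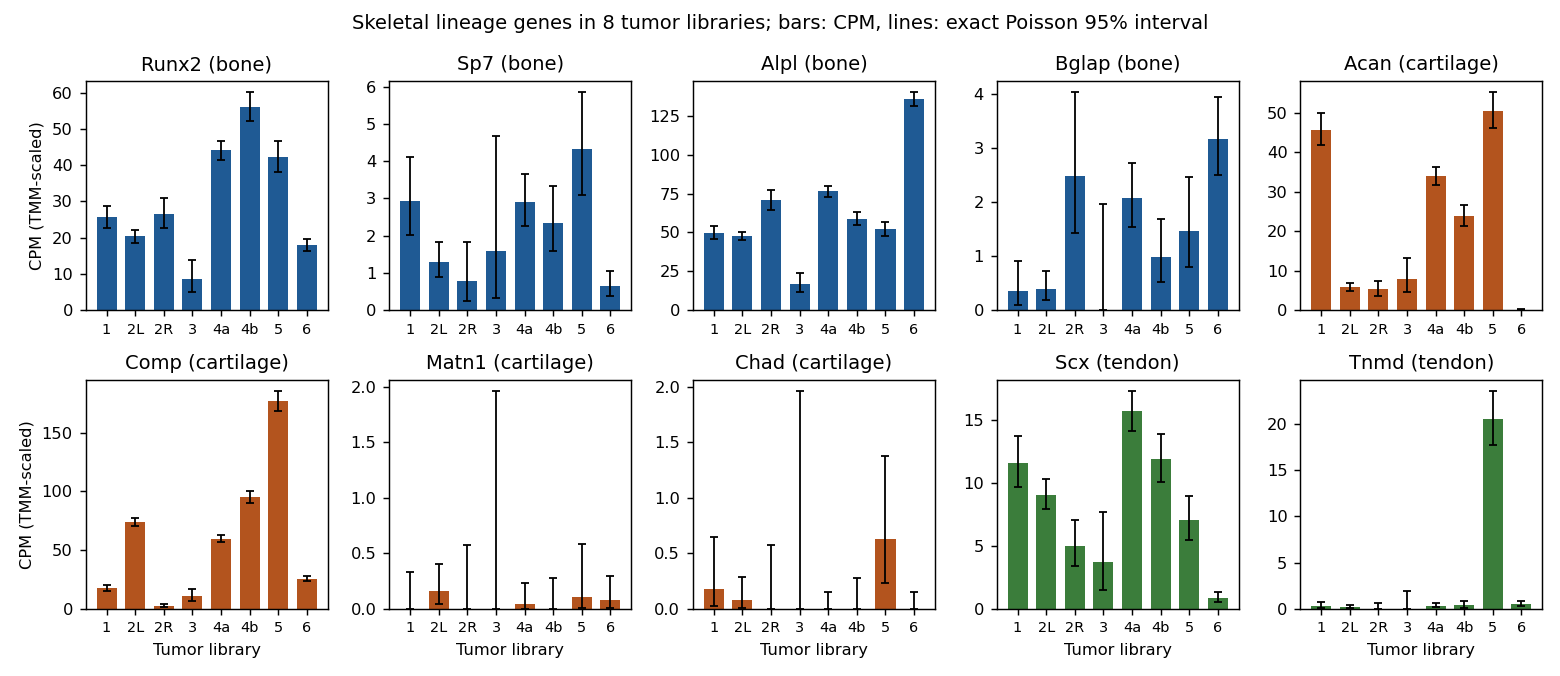
CPM of each of the 10 genes (y axis, a separate scale in each panel) in the 8 tumor libraries (x axis). Bars are the values and lines the exact Poisson 95% intervals; blue is bone, orange cartilage and green tendon. Tnmd stands at 20.5 CPM in tumor 5, with 0.488 CPM as the next highest value, and Acan stands at 0.122 CPM in tumor 6.

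Runx2 (ENSMUSG00000039153, mm10 chromosome 17, 44495987 to 44814797, minus strand) was detected in every tumor. Its level was lowest in tumor 3 at 8.52 CPM (16 counts, 95% interval 4.87 to 13.8), had a median of 26.1 CPM and was highest in 4b at 56.1 CPM, with 44.1 CPM in 4a and 42.2 CPM in 5. Both libraries numbered 4 and tumor 5 thus held the 3 highest values, and their counting intervals did not reach those of the other 5. The mean was 30.2 ± 15.8 CPM (SD, n = 8), and 33.3 ± 14.3 CPM (SD, n = 7) without library 3. Exons of Runx2 share 519 bases with the antisense gene Runx2os1, which had at most 14 counts in a library and at most 2.03% of the Runx2 count. Cbfb, which encodes the partner subunit of Runx proteins, is named after its values were seen. It also peaked in 4b, with 327 CPM, and had its minimum of 83.1 CPM in 3.

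Sp7 (ENSMUSG00000060284, chromosome 15, 102356606 to 102367182, minus strand) was low and was detected in every library, with 3 to 70 counts. It ranged from 0.65 CPM in tumor 6 (16 counts) through a median of 1.97 CPM to 4.32 CPM in tumor 5 (41 counts, 95% interval 3.1 to 5.86). Without TMM factors, when library totals alone set the scale, the lowest value moved from 6 (0.825 CPM) to 3 (0.623 CPM). Its mean was 2.1 ± 1.26 CPM (SD, n = 8).

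Alpl (ENSMUSG00000028766, chromosome 4, 137741733 to 137796384, minus strand) had the highest mean of the 4 bone genes. It stood at 17.0 CPM in tumor 3 (32 counts), at a median of 55.5 CPM, and at 136 CPM in tumor 6 (3344 counts, 95% interval 131 to 141). The remaining 6 libraries lay between 47.5 and 76.5 CPM, so that tumor 6 stood above and tumor 3 below a narrow middle group. The mean was 63.6 ± 34.3 CPM (SD, n = 8), and 70.2 ± 30.9 CPM (SD, n = 7) without library 3. Tumor 6 also held the highest summed level of 5 macrophage markers, 2372 CPM against 176 to 1071 CPM, led by the mannose receptor gene Mrc1 at 1231 CPM; the part of this difference in the Alpl value was not tested.

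Bglap (ENSMUSG00000074483, chromosome 3, 88383501 to 88384464, minus strand) was low. It had 0 counts in tumor 3, a median of 1.23 CPM and its highest level in tumor 6 at 3.17 CPM (78 counts, 95% interval 2.51 to 3.96), followed by 2R at 2.49 CPM and 4a at 2.07 CPM. Osteocalcin is encoded by a cluster of near copies in the mouse, and 56.6% of the 50-base windows of Bglap transcripts occur also in transcripts of other genes, Bglap2 and Bglap3. For Bglap2 the share was 88.2%. How the authors counted reads that match several genes is not given in the sources used here, so the levels of these genes are uncertain. Bglap2 was highest in tumor 6 as well, at 3.21 CPM, with a mean of 0.925 ± 1.11 CPM (SD, n = 8), or 0.598 CPM without tumor 6, and Bglap3 averaged 0.0958 CPM.

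The bone genes thus did not share an order over the tumors. Tumor 6 was highest for Alpl and Bglap and among the lowest for Runx2 (18.0 CPM) and Sp7, while tumor 5 was highest for Sp7 and intermediate for Alpl (52.0 CPM). Because Runx2 is itself in the group and Bglap is its textbook target, their start regions are shown. Both are RefSeq promoters of build GRCm38.p6, from 250 bases before to 50 bases after the start site, at chr17:44814578-44814877 and chr3:88384417-88384716, both on the minus strand and printed 5′ to 3′. Capitals mark ACCACA, the core of the RUNX motif, searched on both strands.
Runx2: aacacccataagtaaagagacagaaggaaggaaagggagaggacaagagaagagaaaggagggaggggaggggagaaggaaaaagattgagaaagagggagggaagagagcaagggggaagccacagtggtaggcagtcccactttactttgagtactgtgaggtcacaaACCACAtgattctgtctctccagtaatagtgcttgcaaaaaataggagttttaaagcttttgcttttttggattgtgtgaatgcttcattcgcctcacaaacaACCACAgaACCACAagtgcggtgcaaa
Bglap: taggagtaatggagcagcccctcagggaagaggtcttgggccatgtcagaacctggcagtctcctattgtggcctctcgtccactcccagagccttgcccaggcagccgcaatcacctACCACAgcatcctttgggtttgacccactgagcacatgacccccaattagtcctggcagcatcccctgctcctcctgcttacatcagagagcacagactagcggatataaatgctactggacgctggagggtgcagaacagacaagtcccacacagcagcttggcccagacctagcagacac
The Runx2 region holds 3 matches and the Bglap region 1, with 1 more in the region of Matn1 on the opposite strand. Promoters were matched for 7 of the 10 genes, and those of Alpl, Acan, Chad and Tnmd hold no match. Of all 32851 promoters of 300 bases in the table, 16.8% hold ACCACA. The SOX core AACAAT occurs in none of the 8 regions of these 7 genes (10.7% of all promoters), and the E-box CANNTG, the motif class bound by Scx, occurs in those of all but Tnmd (72.3% of all promoters). These matches describe letters only.

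Cartilage genes split into a pair that was plentiful in some tumors and a pair that was barely detected. Acan (ENSMUSG00000030607, chromosome 7, 79053483 to 79115099, plus strand) was highest in tumor 5 (50.5 CPM) and tumor 1 (45.7 CPM), followed by 33.9 CPM in 4a and 23.8 CPM in 4b. It lay between 5.29 and 7.99 CPM in 2L, 2R and 3. In tumor 6 only 3 counts were found, 0.122 CPM (95% interval 0.0251 to 0.356). The levels thus left a gap between 7.99 and 23.8 CPM, in which the mean of 21.6 ± 19.8 CPM (SD, n = 8) lay.

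Comp (ENSMUSG00000031849, chromosome 8, 70373558 to 70382066, plus strand) ranged most widely of the 4 skeletal genes that passed the filter. It stood at 2.49 CPM in 2R (16 counts), 10.7 CPM in 3, 17.4 CPM in 1, 25.6 CPM in 6, 59.8 CPM in 4a, 73.5 CPM in 2L, 94.99 CPM in 4b and 177 CPM in 5. Its mean was 57.7 ± 58.4 CPM (SD, n = 8). The counting intervals of neighbours in this order overlapped only for 3 and 1.

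Matn1 (ENSMUSG00000040533, chromosome 4, 130944385 to 130955475, plus strand) and Chad (ENSMUSG00000039084, chromosome 11, 94565047 to 94569127, plus strand) were at the limit of detection. Matn1 had counts in 4 libraries, at most 4 in 2L (0.157 CPM). Chad had counts in 3 libraries, with 6 of its 10 counts in tumor 5 (0.632 CPM, 95% interval 0.232 to 1.38). Leaving out tumor 5 took the mean of Chad from 0.111 to 0.0366 CPM. For neither gene could a difference between tumors be resolved at this depth, apart from the higher Chad count in 5, whose interval did not reach those of 4a and 6.

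Scx (ENSMUSG00000034161, chromosome 15, 76457452 to 76459458, plus strand) was present in every tumor. It was highest in 4a at 15.7 CPM, with 11.9 CPM in 4b, 11.5 CPM in 1 and 9.01 CPM in 2L. Its median was 8.03 CPM and its lowest level was 0.854 CPM in tumor 6 (21 counts, 95% interval 0.528 to 1.31). The interval of tumor 6 lay below those of the other 7 libraries. With library totals in place of TMM factors, its value of 1.08 CPM (0.67 to 1.66) overlapped that of tumor 3, 1.45 CPM (0.584 to 2.99, on 7 counts). The mean was 8.09 ± 4.87 CPM (SD, n = 8).

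Tnmd (ENSMUSG00000031250, chromosome X, 133850980 to 133865577, plus strand) was high in 1 tumor. Tumor 5 held 195 of its 227 counts, at 20.5 CPM (95% interval 17.8 to 23.6). The other 7 libraries lay between 0 counts (2R and 3) and 0.488 CPM in 6. These 0 counts allow up to 0.467 CPM in 2R and up to 1.6 CPM in 3. Its mean was 2.77 ± 7.18 CPM (SD, n = 8) and 0.231 ± 0.188 CPM (SD, n = 7) without tumor 5. All 5 fat cell markers were highest in tumor 5 too, where their summed level was 115 CPM against 8.15 to 18.1 CPM in the others, and 4 of the 5 (Adipoq, Plin1, Cidec and Lep) had 0 counts in 3, 4b and 6. Fabp4 led this list at 105 CPM in tumor 5, and Adipoq stood there at 4.63 CPM. Tnmd is also known from fat tissue, and the part of fat cells in its level was not tested.

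Length-scaled levels put the genes on 1 scale. Comp stood at 19.4 ± 19.7 and Alpl at 15.8 ± 8.49 CPM per kb of exon (SD, n = 8), which was above 86.9% and 82.8% of the kept genes. Scx followed at 4.03 ± 2.43, Runx2 at 3.42 ± 1.79, Acan at 2.9 ± 2.65, Bglap at 2.21 ± 1.84, Tnmd at 2.05 ± 5.31 and Sp7 at 0.618 ± 0.37 CPM per kb. Chad and Matn1 closed the order at 0.0661 and 0.024 CPM per kb. Of the 9 neighbouring pairs in this order, a difference in the same direction in all 8 libraries was seen for Alpl over Scx and for Sp7 over Chad. In the other 7 pairs the mean difference was smaller than its SD over the libraries; Comp exceeded Alpl in 4 of 8 libraries, Scx exceeded Runx2 in 4 and Runx2 exceeded Acan in 5.

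**Figure D2:**
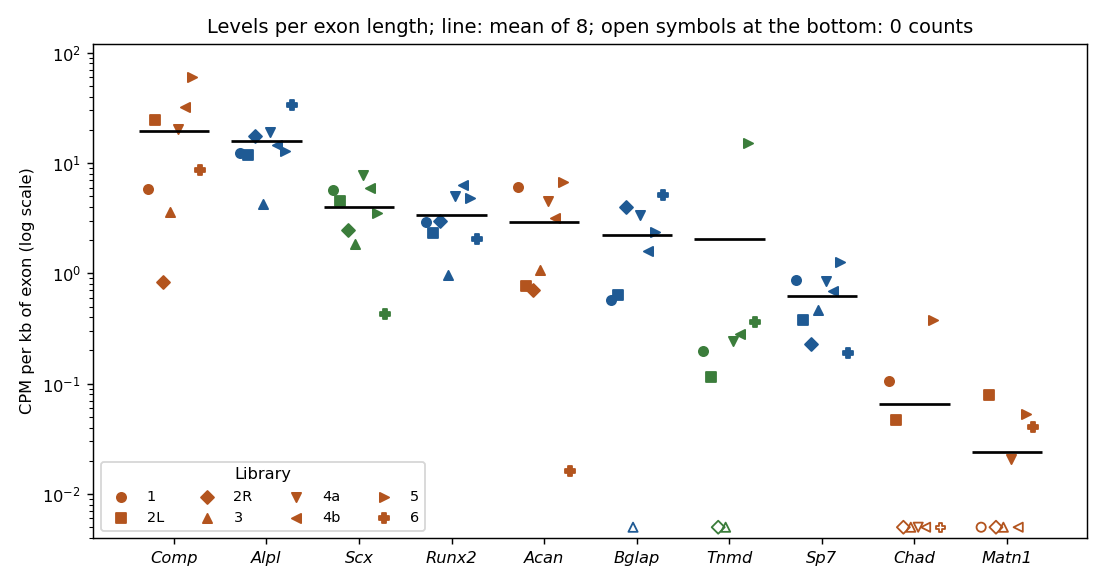
CPM per kb of exon (y axis, log scale) of the 10 genes (x axis, in order of the mean); symbols are the 8 libraries, lines the means, blue bone, orange cartilage and green tendon. Comp and Alpl lead with means of 19.4 and 15.8, and the mean of Tnmd lies above all of its points but tumor 5.

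Differences among the 6 title numbers were tested over all 11505 kept genes with edgeR's quasi-likelihood F-test, in which the pairs 2L with 2R and 4a with 4b give the 2 residual degrees of freedom. No gene was called at an adjusted p of 0.05 (0 of 11505, or 0%), and so none of the 4 skeletal genes tested. The Benjamini-Hochberg adjusted p from edgeR was 0.129 for Runx2, 0.132 for Scx, 0.147 for Alpl and 0.505 for Comp, and the smallest of any gene was 0.0902. Unadjusted p was under 0.05 for 3 of these 4 (Runx2, Scx and Alpl), as for 2813 genes in all, a background of 24.5%. DESeq2's likelihood ratio test called 2383 genes, with adjusted p of 0.00588 for Runx2, 0.00773 for Alpl and 0.00105 for Scx. When 2L or 2R was left out, so that only 4a and 4b measured the spread, edgeR called 4457 or 4548 genes and all 4 skeletal genes. Over all alternatives edgeR and DESeq2 gave adjusted p of 6.99e-05 to 0.499 for Runx2, 1.06e-05 to 0.498 for Scx, 5.39e-06 to 0.498 for Alpl and 9.64e-06 to 0.991 for Comp. With a looser filter (10 counts in at least 2 libraries, 17022 genes) Acan, Tnmd, Sp7 and Bglap could be tested, with edgeR adjusted p of 0.0904, 0.117, 0.279 and 0.498. With every gene counted at least once, edgeR called 6260 of 30321 genes. Its adjusted p was then 2.71e-32 for Acan, 1.22e-19 for Tnmd, 0.377 for Sp7 and 0.136 for Bglap, so the result for Acan and Tnmd depends on the filter.

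Within the same number, Comp set 2L and 2R far apart. It stood at 73.5 CPM in 2L and 2.49 CPM in 2R, a log2 difference of 4.81, and Bglap differed the other way, at 0.392 and 2.49 CPM (log2 difference -2.31, on 10 and 16 counts). These were 2 of the 7 skeletal genes with at least 10 counts in either library; of all 16865 such genes 28.0% differed at least 2-fold. Runx2, Sp7, Alpl, Acan and Scx differed by log2 values between -0.57 and 0.84, and with library totals the direction turned for Runx2 (from -0.39 to 0.27) and Alpl (from -0.57 to 0.09). Skeletal muscle markers differed in the direction of Comp: all 12 were highest in 2L, where their summed level was 21578 CPM against 123 CPM in 2R, and Ttn alone stood at 12172 and 84.7 CPM. Library 3, second in muscle markers at 6826 CPM summed, held Comp at 10.7 CPM, and tumor 5, highest in Comp, held 65.8 CPM of muscle markers. Epidermal markers were also higher in 2L, at 853 CPM summed against 74.7 CPM in 2R, and stood at 689 CPM in tumor 5. The mitochondrial share was 1.85% in 2L and 27.3% in 2R. The part of muscle, epidermis or RNA quality in the Comp difference was not tested.

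Between 4a and 4b, 0 of 7 skeletal genes differed at least 2-fold, against 9.90% of 16495 genes. Log2 differences ran from -0.67 for Comp to 0.98 for Bglap, the latter on 50 and 13 counts. Each pair is 1 library against 1, so these differences have no replicate and no test.

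**Figure D3:**
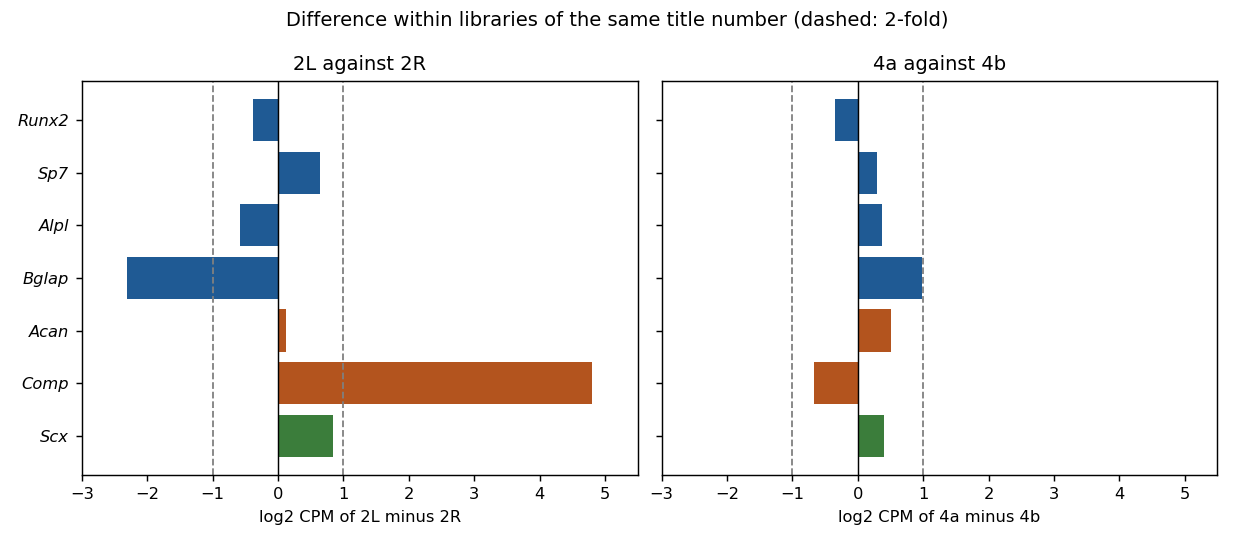
Log2 difference in CPM (x axis; prior count 2) of the 7 skeletal genes (y axis) with at least 10 counts in either library, for 2L minus 2R and 4a minus 4b. Bars beyond the dashed lines differ at least 2-fold, as Comp (4.81) and Bglap (-2.31) do between 2L and 2R and no gene does between 4a and 4b.

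Over the 8 libraries, Comp and Scx were more uneven than most genes. The SD of log2 CPM was 1.97 for Comp, 1.28 for Scx, 0.86 for Runx2 and 0.84 for Alpl, which placed them at the 99.1th, 94.6th, 81.4th and 80.1th percentile of kept genes. Without library 3 the SD of Alpl was 0.53 and that of Runx2 0.62, at the 68.6th and 75.7th percentile. An SD of at least 1 was found for 12.8% of kept genes. Outside the filter the SD was 2.51 for Acan, 2.28 for Tnmd, 1.55 for Bglap, 0.90 for Chad, 0.89 for Sp7 and 0.44 for Matn1.

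Tumor 5 held the highest level of 4 of the 8 skeletal genes with a mean of at least 1 CPM (Sp7, Acan, Comp and Tnmd). Of 15227 such genes 10.3% were highest there. Tnmd reached that mean only through tumor 5 (0.231 CPM without it), so its place in this count was fixed in advance. In tumor 6 the corresponding number lowest was 3 of 8 (Sp7, Acan and Scx, or Acan and Scx when library totals set the scale), against 18.1% of genes. Tumor 6 was highest for 2 of the 8 (Alpl and Bglap), against 14.8% of genes, and tumor 3 was lowest for 3 of the 8 (Runx2, Alpl and Bglap), against 31.7%. For Bglap this rests on 0 counts, which allow up to 1.6 CPM in tumor 3. That limit lies above the Bglap levels of 1, 2L, 4b and 5, so its lowest tumor is not settled. In tumor 5 the epidermal markers summed to 689 CPM, the fat markers summed to 115 CPM, and the mitochondrial share was 24.0%; their part in these levels was not tested. These counts were made after the values were seen and are given as a description.

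Other bone genes, from a list of 28, were led by matrix genes that fibroblasts also express. A mean of 1 CPM was reached by 20, against 30.7% of all 49671 genes. The filter was passed by 13, against 23.2% of all genes, and edgeR's test by 0, as by 0 of the 11505 kept genes. Col1a2 and Col1a1, the type I collagen chains, stood at 5251 ± 4062 and 2733 ± 2443 CPM (SD, n = 8), Sparc (osteonectin) at 2735 ± 1479 CPM and Spp1 (osteopontin) at 778 ± 1309 CPM, with 3964 CPM in 2R and a mean of 322 CPM without it. Ibsp (bone sialoprotein) reached 203 CPM in tumor 5 and 51.4 CPM in 2R, and no more than 6.3 CPM elsewhere. Tnfrsf11b (osteoprotegerin), the decoy receptor that restrains osteoclasts, was highest in 2L at 18.2 CPM and in 5 at 15.8 CPM, and lowest in 1 at 0.178 CPM. Of 10 osteoclast markers 6 reached a mean of 1 CPM, against 30.7% of all genes. They were led by Ctsk (cathepsin K), which stood at 6.39 CPM in 3 and 247 CPM in 4a. Macrophages and fibroblasts express Ctsk too. Acp5 reached 94.5 CPM in 2L, Mmp9 88.4 CPM in 5, Nfatc1 64.8 CPM in 2R, Tnfrsf11a 14.2 CPM in 6 and Atp6v0d2 13.3 CPM in 5, whereas Calcr, Ocstamp, Dcstamp and Oscar did not exceed 0.901 CPM. The summed level of the 10 ran from 46.3 CPM in 3 to 351 CPM in 4a.

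Among 26 other cartilage genes 18 reached a mean of 1 CPM, against 30.7% of all 49671 genes. The filter was passed by 11, against 23.2% of all genes, and the test by 0, as by 0 of the 11505 kept genes. Mgp, an inhibitor of calcification, stood at 302 ± 287 CPM, the link protein gene Hapln1 at 230 ± 437 (76.7 without 2R, which held 1299), Cilp at 87.0 ± 80.3 and Col2a1, the collagen of hyaline cartilage, at 84.5 ± 76.5 CPM (SD, n = 8). Col9a2 and Col9a3, subunits of the collagen that coats type II fibrils, shared their 3 highest libraries: 2L at 167 and 164 CPM, 5 at 68.7 and 89.7 CPM, and 3, where Col9a3 stood at 41.5 CPM; the remaining libraries did not exceed 6.57 CPM. Acan did not share this order, since 2L and 3 were among its low libraries. Snorc was listed at 0 in all 8 libraries, which by counting error allows up to 0.0257 CPM over all of them. Sox9, the regulator of cartilage formation, and Mmp13, a collagenase of hypertrophic cartilage, were named after their values were seen: Sox9 ranged from 13.7 CPM in 2R to 105 CPM in 3, and Mmp13 peaked in tumor 5 with 162 CPM, followed by tumor 1 with 28.1 CPM.

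The tendon list held 18 genes besides Scx and Tnmd. A mean of 1 CPM was reached by 17, against 30.7% of all 49671 genes. The filter was passed by 14, against 23.2% of all genes, and the test by 0, as by 0 of the 11505 kept genes. Col12a1, a collagen of fibril surfaces, stood at 1936 ± 1604 CPM, Bgn (biglycan) at 269 ± 161, the crosslinking enzyme gene Lox at 266 ± 197 and Fmod (fibromodulin) at 246 ± 296 CPM (SD, n = 8), with Fmod at 815 CPM in tumor 6 and 607 CPM in tumor 1. Eya1, a transcriptional coactivator, ranged from 0.122 CPM in 6 to 21.8 CPM in 2L. The tendon regulator Mkx, named after its values were seen, peaked in 2L with 78.4 CPM and had its minimum in 2R with 2.49 CPM, so that this pair holds both ends of its range. Fibroblast markers, which overlap with tendon genes in Dcn, were plentiful. All 8 reached a mean of 10 CPM, against 19.1% of all genes. Col3a1 led them at 2233 ± 1697 CPM (SD, n = 8), and their summed level ran from 645 CPM in 3 to 8416 CPM in 4a. Epidermal markers summed to 853 CPM in 2L, 689 CPM in 5, 303 CPM in 3 and 2.11 to 77.2 CPM in the other 5 libraries, with Dsg3 at 396 CPM in 2L.

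**Figure D4:**
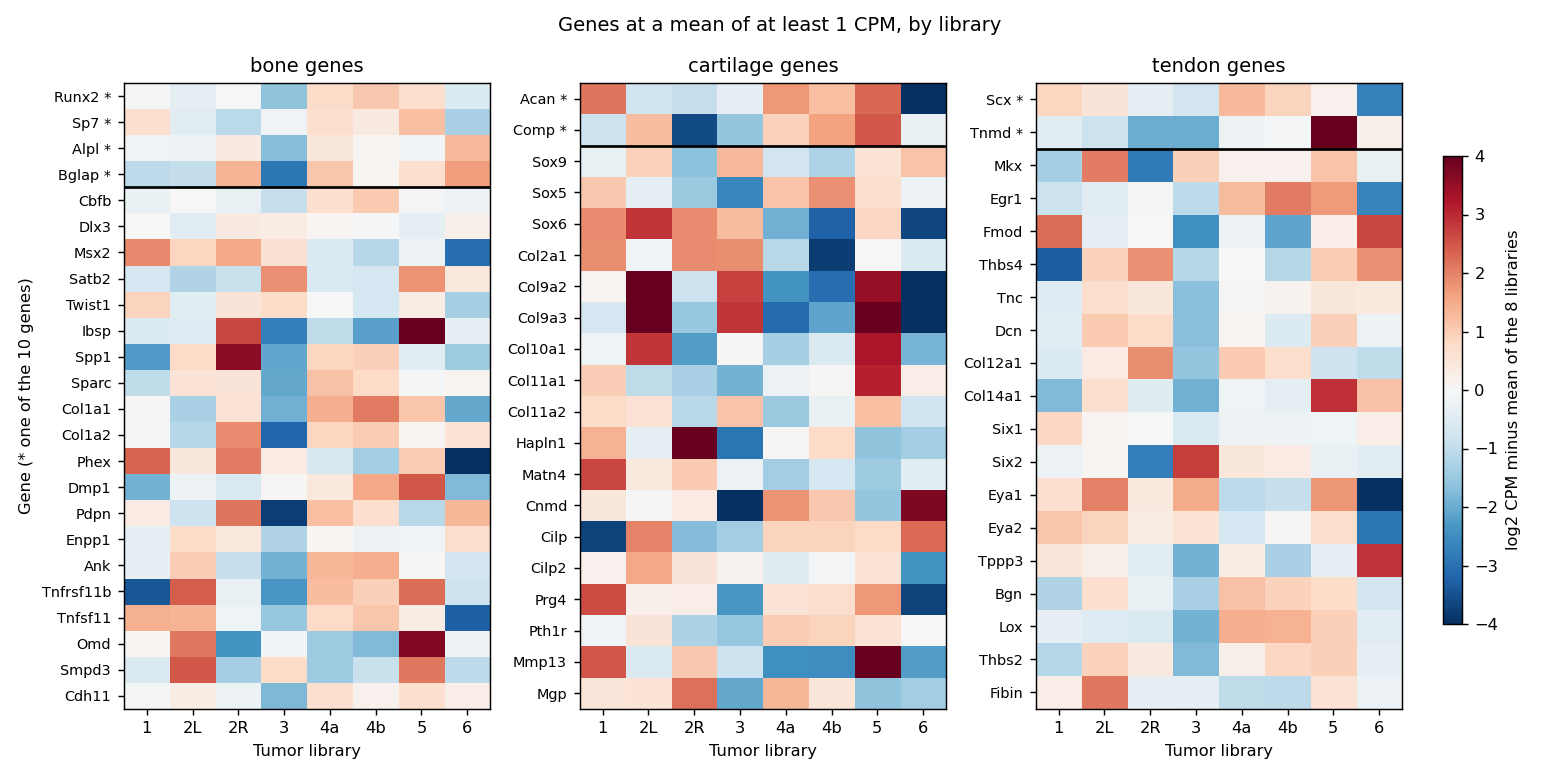
Log2 CPM minus the gene's mean over the 8 libraries (color, capped at 4 either way) for bone, cartilage and tendon genes at a mean of at least 1 CPM (rows; 8 of the 10 genes reach this level, carry an asterisk and stand above the line) in each tumor (columns). Tumor 5 is dark red for Tnmd, Ibsp and Mmp13, and tumor 6 dark blue for Acan.

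Some family relatives exceeded their counterparts among the 10 genes and others did not. Vcan, Runx1, Thbs1 and Thbs2 were named for the highest mean CPM of their list, which favors relatives that exceed. Per kb of exon, Vcan (versican) stood at 22.0 ± 11.9 CPM against 2.9 ± 2.65 for Acan, and Runx1 at 9.17 ± 3.02 against 3.42 ± 1.79 for Runx2 (SD, n = 8). The thrombospondins Thbs1 and Thbs2, relatives of Comp, stood at 30.7 ± 17.2 and 13.2 ± 7.14 CPM per kb, against 19.4 ± 19.7 for Comp. Thbs4 and Thbs3 lay below Comp as well, at 14.6 and 7.4. Other relatives below their counterparts, named after their values were seen, included Runx3 at 2.8, and Bcan and Ncan at 0.534 and 0.0849. Bglap2 stood at 1.96 and Bglap at 2.21. Alpi, Alppl2 and Akp3 did not exceed 0.0464 CPM per kb, where Alpl was at 15.8. Cnmd (chondromodulin), the relative of Tnmd, stood at 11.5 ± 17.6 CPM per kb (5.44 without tumor 6) and was highest in tumor 6, at 98.9 CPM. Matn2, named after its values were seen, stood at 4.22 CPM per kb where Matn1 was at 0.024. The brain proteoglycan gene Bcan peaked in tumor 5 with 10.7 CPM, followed by tumor 1 with 3.2 CPM.

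The genes whose levels tracked each tested skeletal gene most closely were found by the SD of the log2 ratio to it over the 8 libraries, the smaller the closer. For Runx2 these were Abcg2 (SD 0.23), Cald1 (0.28) and Maip1 (0.29), where the median over kept genes was 1. Txndc16 and Nqo2 followed 3830406C13Rik for Alpl, at 0.18, 0.18 and 0.17 (median 0.96). Scx was tracked by Pde5a at 0.38, Ildr2 at 0.45 and Kcnk1 at 0.47 (median 1.38). Comp had looser companions, Npr3 at 0.74, Aspn at 0.91 and Fam198b at 0.91 (median 2.04). Aspn encodes asporin, a small proteoglycan of cartilage and tendon; Npr3 encodes a clearance receptor for natriuretic peptides and Pde5a a phosphodiesterase. Each set is the minimum over 11505 genes and has no test. Without library 3, Npr3 and Pde5a again ranked first for Comp and Scx, and the first for Alpl moved to rank 4. The 3 genes of Runx2 then ranked 8, 33 and 81 among the 11505 kept genes. They stayed among the closer genes, and which genes came closest depended on library 3.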

How the data were processed

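Total RNA of 8 tumors was sequenced after ribosomal RNA depletion. The authors deposited 1 table of raw counts, whole numbers per Ensembl gene, 1 column per sample. The tools named by the submitters' processing notes are featureCounts, RSEM, cutadapt and STAR (2.7.5a), and the build is mm10. Which of them made the counts, the annotation release, strand handling and treatment of multi-mapping reads are not given in the sources used here, so reads of a gene and its antisense partner cannot be separated. GENCODE M21 of the same build named 49412 of 49671 identifiers and gave summed exon lengths.

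In R 4.3.3, edgeR 4.0.16 filterByExpr for 1 group kept 11505 genes (0.92 CPM before scaling in all 8 libraries); TMM factors scaled library sizes, and log2 CPM used a prior count of 2. Differences among the 6 title numbers were assessed by edgeR's quasi-likelihood F-test (robust), adjusted after Benjamini and Hochberg over all kept genes. The step was tried on simulated counts with shifts planted in number 6. It picked up 1 of 50 genes with a 2-fold shift and 23 of 50 with a 4-fold shift. At 8-fold and at 16-fold it missed none of 50. False calls made up 7 of its 131. The absence of calls in the tumors thus does not exclude differences of 2-fold to 4-fold. DESeq2 1.42.0, other scalings, filters, prior counts and left-out libraries were alternatives. Intervals are exact Poisson 95%. Library totals of 4817902 to 19682149 counts set the precision.

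The 10 genes and all lists were chosen with earlier results of these data known. Named genes are the 10, their Bglap copies, the top 4 by mean CPM in each lineage or family list, the top 2 there by SD of log2 CPM (mean of at least 1 CPM), genes at 0 throughout, the leading gene of each marker list, and the 3 closest genes of each tested member.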

Additional observations from a re-analysis of the deposited data

Results flagged for a closer look

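For each of 56 values named above, the highest and the lowest library were set against the other 7 by Dixon's ratio of the gap to the whole range, and 19 had 1 library beyond the 95% limit. Chance gives this in about 1 in 20 groups of unselected, normally distributed values, a rate that cannot be set against the 19. The ratio was taken on CPM without a log, and CPM was not tested for a normal distribution. Many of these genes were chosen for a large spread or named after their values were seen, and all share the same libraries. In 9 of the 19 values tumor 5 was the library far above the rest. Among the 10 skeletal genes these were Tnmd, at 20.5 CPM against a next highest value of 0.488, and Chad, at 0.632 CPM (6 counts) against 0.178. Related genes far higher in tumor 5 were Ibsp (203 CPM, next 51.4), Mmp13 (162 CPM, next 28.1), Bcan (10.7 CPM, next 3.2) and Bglap3 (0.527 CPM, next 0.157). The fat marker sum (115.1 CPM, next 18.1), Fabp4 (105.1 CPM) and Adipoq (4.63 CPM, next 0.431) stood apart in the same tumor.

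Tumor 2R stood far above the other libraries in Spp1 (3964 CPM, next 617), Hapln1 (1299 CPM, next 203) and the summed cartilage list (2534 CPM, next 1172), of which Hapln1 is a member. Tumor 6 did so in Cnmd (98.9 CPM, next 25.8), Bglap2 (3.21 CPM, next 1.47), Mrc1 (1231 CPM, next 506) and the summed macrophage markers (2372 CPM, next 1071). Tumor 2L did so in Col9a2 (167 CPM, next 68.7), Ttn (12172 CPM, next 5145 in tumor 3) and the summed muscle markers (21578 CPM, next 6826).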

How the results depend on the processing

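The number of genes called among the 6 title numbers, 0 with edgeR's quasi-likelihood test (2813 at an unadjusted p under 0.05), was also 0 with DESeq2's size factors and with the looser filter (3869 at an unadjusted p under 0.05). It was 3791 with library totals only, 6260 of 30321 with every gene counted at least once, and 2383 with DESeq2's likelihood ratio test; with 1 library left out it ranged from 0 to 4548, above 0 only without 2L (4457) or 2R. The cause of these differences was not tested. Library totals moved the median of all kept genes by -1.36 (log2) in library 3 and by up to 0.39 in 4a. With them, 4 rather than 2 tested skeletal genes had an SD of log2 CPM of at least 1 (27.2% of kept genes), 4 rather than 2 differed at least 2-fold between 2L and 2R (Sp7 at 1.21 and Scx at 1.48 joined), and 1 rather than 0 did between 4a and 4b (Bglap, at 1.13). A prior count of 0.5 also gave 1 there (Bglap, at 1.05). Library totals also turned the sign of the differences of Runx2 and Alpl between 2L and 2R, both under 2-fold. Leaving out tumor 5 took the mean of Tnmd from 2.77 to 0.231 CPM and that of Chad from 0.111 to 0.0366 CPM. The SD of log2 CPM without library 3, and the means of Spp1, Hapln1, Cnmd and Bglap2 without their highest library, were chosen after seeing the data. No paired analysis was possible because the libraries form 1 group, in which each replicate number occurs once. Depth limits Matn1, Chad and, in library 3, Sp7, Bglap and Tnmd.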
